A study of Homo sapiens with 8 samples.

Results

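Subtelomeric H3K4me3 regions were defined as the stretches of chromosomes 1 to 22 that lay within 1 Mb of either end of the GRCh38 chromosome sequence and were covered by a broad peak in at least 1 of 6 libraries, after overlapping or touching peaks of all libraries had been merged. This gave 929 of 30268 autosomal regions, or 3.07%, and the remaining 29339 regions served as the rest of the genome. The libraries came from U2OS, an osteosarcoma cell line whose telomeres are kept up by recombination and not by telomerase. The 3 WT and 3 ZBTB48 KO libraries each came from a separate clone of this line, so a difference between genotypes and a difference between clones cannot be told apart for any single region. All clones had been grown for 24 h with interferon gamma (IFNγ) at 250 U/ml, and no untreated library was among the samples. The 2 WT input libraries were not used here. The question behind the comparison was whether the loss of a telomere-binding protein goes with a change in H3K4me3 near the chromosome ends.

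Trimethylation of histone H3 at lysine 4 (H3K4me3) marks the nucleosomes around the 5′ ends of active genes, and broad peaks are the stretches over which a ChIP library is enriched for it. Human chromosomes end in arrays of the hexamer TTAGGG, next to which lie blocks of sequence that are shared between many ends, followed inwards by gene-dense single-copy sequence. ZBTB48, also called TZAP, is a zinc finger protein that binds the TTAGGG array and also a set of gene promoters.

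The sequences below are those under the 5 subtelomeric regions with 2 copies of the telomere hexamer in tandem, the most that any of these regions held. Each is read 5′ to 3′ on GRCh38 on the strand that reads TTAGGG, and capitals mark the hexamer. They lie at chr4:704973-705012, chr11:134251954-134251993, chr16:740557-740596, chr22:50201852-50201891 and chr22:50672429-50672468.
PCGF3 region: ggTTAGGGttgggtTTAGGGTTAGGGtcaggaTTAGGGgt
THYN1 region: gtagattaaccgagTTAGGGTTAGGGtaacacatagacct
CIAO3 region: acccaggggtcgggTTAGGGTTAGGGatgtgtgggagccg
TRABD-AS1 region: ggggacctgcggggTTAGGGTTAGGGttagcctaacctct
SHANK3 region: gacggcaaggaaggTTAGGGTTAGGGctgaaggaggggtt

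The lists of peaks fell into 2 kinds that followed the genotype in part, since the lists with high fold enrichment were all WT. WT replicates 1 and 2 had a median fold enrichment of 15.2 and 16.4 over their subtelomeric peaks, as the authors' peak caller gave it, while WT replicate 3 had 4.02 and the KO libraries had 4.18, 4.59 and 4.58. Their peaks were also wider over the whole genome. Whether the caller was given an input for every list is not given in the sources used here, so fold enrichment and width may not mean the same in both kinds. For this reason the comparisons of the genotypes over all regions and over chromosome ends are given with all 3 WT libraries and, as a value without a test, with WT replicate 3 alone against the 3 KO libraries. The lists carry no read counts, so the depth of a library is unknown here, and a region that was not called may lie under the threshold of its library.

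Regions were dense near the chromosome ends, in step with genes. Of the 44 ends, 39 had sequence within 1 Mb and all 39 held at least 1 region, while the short arms of chromosomes 13, 14, 15, 21 and 22 had no sequence there. An end held a median of 22 regions, from 3 at 3p to 54 at 8q, with 355 regions on short arms and 574 on long arms. Per sequenced Mb there were 24.9 regions near the ends and 10.8 elsewhere, a ratio of 2.31. Protein-coding genes numbered 17.2 and 6.79 per sequenced Mb in the same stretches, a ratio of 2.53. The number of regions per protein-coding gene was therefore close in both, at 1.45 near the ends and 1.59 elsewhere.

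The density fell towards the end itself. It was 28.9 regions per sequenced Mb between 500 and 1000 kb, 23.5 between 250 and 500 kb, 19.3 between 100 and 250 kb and 12.8 in the outermost 100 kb. Beyond 1 Mb it was 26.9 out to 2 Mb, 19.2 out to 5 Mb, 13.7 out to 10 Mb and 9.86 farther in. The share of regions called in all 6 libraries showed no such course and was 62.5%, 53.6%, 64.3% and 55.5% from the outermost to the innermost of the 4 bins, which held 32, 110, 227 and 560 regions. Protein-coding genes were not counted in these bins. The authors had dropped reads with several map positions, and the part this played in the lower density of the outermost bins was not tested.

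**Figure D1:**
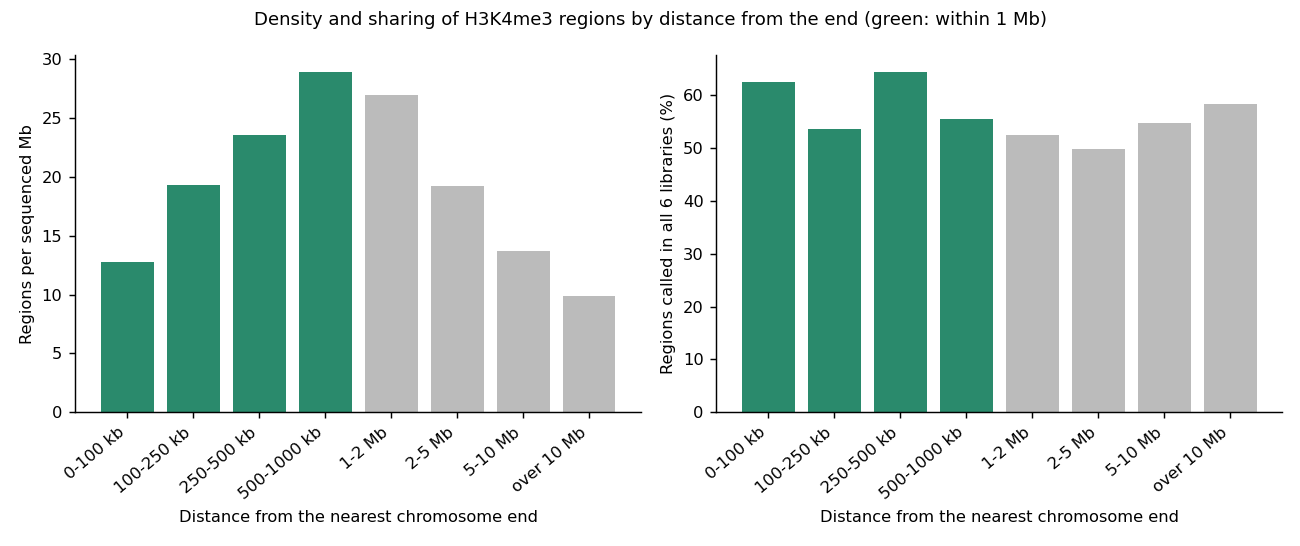
Regions per sequenced Mb (left) and the percentage of regions called in all 6 libraries (right), by distance from the nearest chromosome end. Green bars are the stretches within 1 Mb and grey bars those farther in; the density rises from 12.8 in the outermost 100 kb to 28.9 between 500 and 1000 kb and falls to 9.86 beyond 10 Mb, while the shared percentage stays between 49.9 and 64.3.

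By annotation, 391 subtelomeric regions (42.1%) lay within 1 kb of the 5′ end of a protein-coding gene, compared with 39.0% elsewhere. A further 175 lay at another annotated 5′ end, 56 touched an exon, 137 lay in introns and 170 were intergenic. Of the promoter regions, 361 (92.3%) were called in all 6 libraries, beside 94.1% of promoter regions over all autosomes. The share was 29 of 137 (21.2%) in introns, beside 19.8%, and 42 of 170 (24.7%) between genes, beside 29.8%. The order of these places was thus that of the whole genome. Subtelomeric regions had a median G+C content of 59.1%, compared with 50.9% elsewhere, and a median ratio of observed to expected CpG of 0.538, compared with 0.469. High G+C was not particular to the last 1 Mb, since the median was 60.0% between 1 and 2 Mb and 55.9% between 2 and 5 Mb. The merged regions had a median width of 1810 bp near the ends and 1570 bp elsewhere.

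No peak covered a telomeric array. The region nearest to the end of a chromosome sequence lay 38.4 kb from 12q, and the median over the 39 ends of the nearest region was 114 kb. Within 1 Mb of the ends, 148 tracts of at least 4 tandem TTAGGG or CCCTAA copies were found, of which 57 lay more than 2 kb from the outermost sequenced base, at 16 ends. None of the 148 overlapped a region, and no region of all 30268 contained such a tract. The authors had dropped reads with several map positions before peaks were called, so the mark at these tracts could not be assessed. A single copy of the hexamer, searched as TTAGGG and CCCTAA, was present in the central 1000 bp of 25.9% of subtelomeric regions and 29.4% of all autosomal regions. In the outermost 100 kb the percentage was 43.8, or 14 of 32 regions. Over the same central stretch, 2 copies in tandem were present in 2 of 929 subtelomeric regions (0.215%), beside 12 of 30268 autosomal regions (0.0396%).

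Tandem copies were also searched over the whole length of the subtelomeric regions, and a share over all autosomal regions was not counted. The 5 regions with 2 tandem copies, printed above, all lay at promoters and were called in all 6 libraries. They belonged to PCGF3, a Polycomb-group ring finger gene, THYN1, CIAO3, a gene of cytosolic iron-sulfur protein assembly, TRABD-AS1 and SELENOO, and SHANK3, a scaffold of neuronal synapses. At PCGF3 peaks covered 4102, 4346 and 2187 bp in WT replicates 1, 2 and 3 and 2223, 2131 and 2117 bp in KO replicates 1, 2 and 3. WT replicate 3 thus lay among the KO libraries at this promoter. At SHANK3 the values were 5122, 4682 and 2819 bp in WT and 2080, 1607 and 1644 bp in KO, so that WT replicate 3 was 739 bp above the highest KO library.

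A single region lay within 1 kb of a tract, at the very end of 18q, and it was chosen for description after its values were seen. It ran from chr18:80262277-80262717, 568 bp from the outermost sequenced base, and the nearest tract began 176 bp beyond it, with 60 copies in all within 1 kb. The region was not called in any WT library or in KO replicate 2, and was called over 441 bp in KO replicate 1 and 267 bp in KO replicate 3. Its −log10 q, as deposited, was 8.76 and 5.45 in those 2 libraries. The calls came from 2 of 3 KO clones and 0 of 3 WT clones, which does not separate the genotypes.

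The only other region within 1 kb of an outermost sequenced base was on 14q, where the sequence breaks off among the immunoglobulin heavy-chain segments. Reads that mapped to several places had been dropped by the authors before peaks were called, and the part this played at repeats shared between ends was not tested.

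The 6 regions nearest to the ends of the chromosome sequences were mostly promoters of single-copy genes. The promoter of ANHX, an atypical homeobox gene, lay 38.4 kb from the end of 12q and was covered over 591, 0 and 992 bp in WT and 1103, 762 and 789 bp in KO. The genotypes overlapped there. Next came a region of 257 bp on 13q that only KO replicate 3 called. It was followed by a region on 21q at an annotated 5′ end other than that of a protein-coding gene. The nearest protein-coding 5′ end, of the arginine methyltransferase gene PRMT2, was 30902 bp away. This 21q region had 2984, 2124 and 1372 bp in WT and 1425, 1295 and 1292 bp in KO. At MZF1, a zinc finger gene 40.6 kb from the end of 19q, WT libraries had 5053, 5231 and 2788 bp and KO libraries 3937, 4006 and 2822 bp.

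FAM110C, the outermost marked promoter of 2p, had 3226, 3096 and 2640 bp in WT and 1928, 1962 and 1753 bp in KO, and every WT library lay above every KO library. CHAMP1, which takes part in attaching kinetochores to microtubules, had 3190, 2950 and 2147 bp in WT and 1959, 1689 and 1778 bp in KO on 13q, again without overlap. The RefSeq promoter of FAM110C (GRCh38.p14, chr2:46456-46755, minus strand) is shown as the sequence under the outermost of these non-overlapping regions. It had 78.0% G+C and 37 CpG, and holds neither TTAGGG nor CCCTAA.
FAM110C promoter: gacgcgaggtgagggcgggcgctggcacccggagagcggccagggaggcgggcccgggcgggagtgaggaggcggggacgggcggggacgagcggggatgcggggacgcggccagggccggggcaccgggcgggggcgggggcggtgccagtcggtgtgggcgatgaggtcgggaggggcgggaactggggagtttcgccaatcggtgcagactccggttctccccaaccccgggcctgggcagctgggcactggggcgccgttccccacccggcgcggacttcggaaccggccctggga

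Each library called most of the subtelomeric regions. WT replicates 1, 2 and 3 called 681, 638 and 707 of the 929 regions (73.3%, 68.7% and 76.1%), and KO replicates 1, 2 and 3 called 797, 658 and 680 (85.8%, 70.8% and 73.2%). KO replicate 1 was highest and the other KO libraries lay within the WT range. WT averaged 72.7% ± 3.75 (SD, n = 3) while KO averaged 76.6% ± 8.04 (SD, n = 3), a difference of -3.91 percentage points (two-sided exact permutation of the 6 libraries, p = 0.7, adjusted p = 0.82 over 7 tests by the Benjamini-Hochberg method). The difference was -0.50 points with WT replicate 3 alone. No p under 0.1 can come out of this test, since 6 libraries allow 20 assignments.

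Of the 929 regions, 536 (57.7%) were called in all 6 libraries, beside 57.1% of all autosomal regions. At the other extreme, 170 (18.3%) were called in a single library, and 71 of these belonged to KO replicate 1. Against the rest of the genome in the same library, the share called near the ends was higher in 4 of 6 libraries, with a mean difference of 1.35 percentage points (two-sided exact sign-flip permutation over 6 libraries, p = 0.34, adjusted p = 0.60). The difference was positive in all 3 KO libraries and in WT replicate 1.

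The share of all covered autosomal bases that lay near the ends was 3.55%, 3.57% and 3.26% in WT and 3.44%, 3.30% and 3.37% in KO. WT replicate 3 had the lowest share and the groups overlapped. The difference of the means was 0.084 percentage points (exact permutation, p = 0.5, adjusted p = 0.70), and it was -0.12 points with WT replicate 3 alone. The median distance of a peak from the end was 570.2, 567 and 575 kb in WT and 587, 566 and 566 kb in KO (exact permutation, p = 1). The difference of the means was -2261 bp, and it was 2227 bp with WT replicate 3 alone.

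Peak width separated the WT from the KO libraries, with the caveat that the WT lists were of 2 kinds. The median subtelomeric peak was 2556.5, 2832.5 and 1620 bp wide in WT and 1479, 1426.5 and 1340 bp wide in KO. Every WT library lay above every KO library, by a mean of 921 bp with all WT libraries and of 205 bp with WT replicate 3 alone (exact permutation of all 6, p = 0.1, the smallest possible, adjusted p = 0.23). Peaks elsewhere in the genome followed the same order, with medians of 2302, 2353 and 1480.0 bp in WT and 1382, 1373 and 1269 bp in KO.

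Relative to the other peaks of the same library, subtelomeric peaks were wider in all 6 libraries. The ratio of the medians was 1.11, 1.20 and 1.09 in WT and 1.07, 1.04 and 1.06 in KO, a difference between genotypes of 0.081 (exact permutation, p = 0.1, adjusted p = 0.23) and of 0.040 with WT replicate 3 alone. The width difference within a library averaged 183 bp over the 6 libraries (exact sign-flip permutation, p = 0.031, the smallest possible, adjusted p = 0.22). WT libraries averaged 291 bp ± 173 (SD, n = 3), whereas KO libraries averaged 73.8 bp ± 21.9 (SD, n = 3). The difference thus held in every library and did not pass the correction for 7 tests. Within 2 Mb of an end the mean over the 6 libraries was 184 bp, so the excess was no larger in the last 1 Mb.

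**Figure D2:**
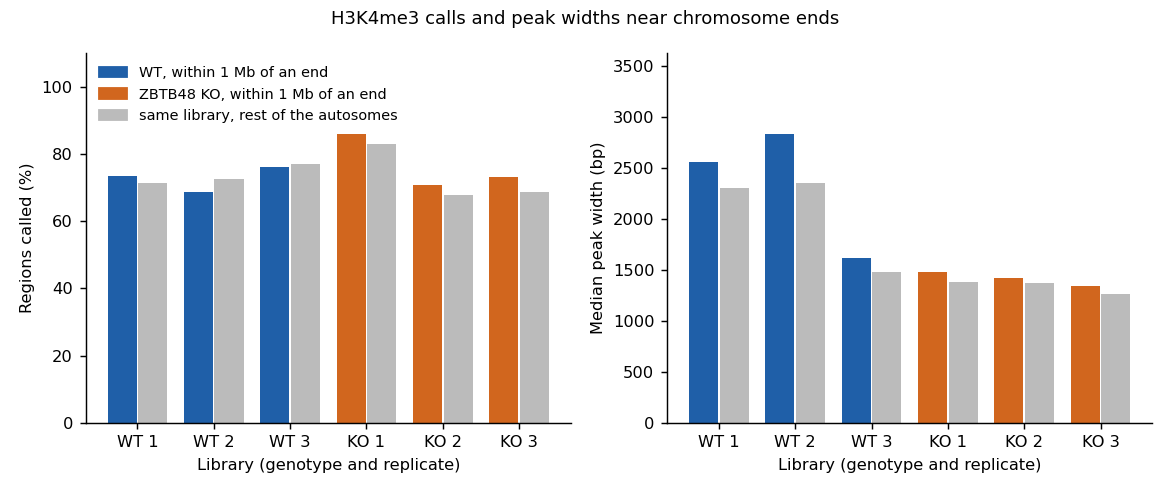
Percentage of regions called (left) and median peak width in bp (right) in each library, for regions within 1 Mb of an end (coloured by genotype) and for the rest of the autosomes of the same library (grey). Subtelomeric peaks are wider than the others in all 6 libraries, and the widths of WT replicates 1 and 2, 2556.5 and 2832.5 bp, stand apart from the other 4.

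Region by region, more bases were covered in every WT than in every KO library at 247 subtelomeric regions (26.6%), beside 27.1% of all autosomal regions. The reverse was found at 8 (0.861%), beside 0.624% of all. Both shares were near their background. With WT replicate 3 alone, 352 regions (37.9%) had more covered bases than in every KO library, beside 41.7% of all, and 49 (5.27%) had fewer, beside 3.73%. An excess of WT replicate 3 was also counted from a set size, and 61 regions (6.57%) had at least 500 bp more than in every KO library, beside 6.42% of all autosomal regions.

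**Figure D3:**
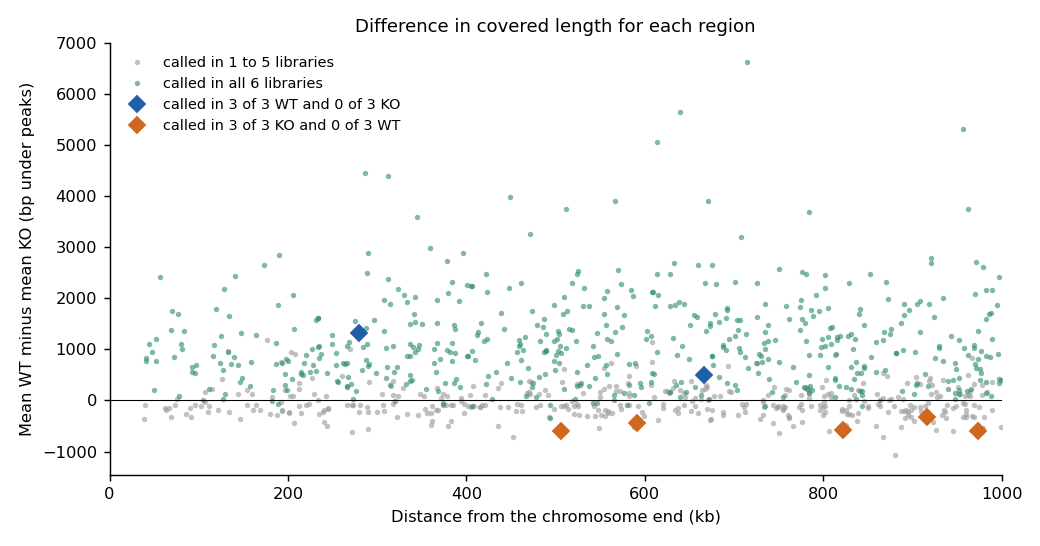
Mean covered length in WT minus that in KO (bp) for each of the 929 regions against its distance from the chromosome end (kb). Green points are the 536 regions called in all 6 libraries and grey points the others, and diamonds mark the 2 regions called only in WT and the 5 called only in KO libraries; positive differences occur at every distance.

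Calls that followed the genotype were rare. Only 2 subtelomeric regions (0.215%) were called in 3 of 3 WT and 0 of 3 KO libraries, beside 0.317% of all autosomal regions. The first, chr16:279976-281834, lay at the promoter of ARHGDIG and was covered over 908, 1859 and 1172 bp in WT and 0 bp in each KO library. The same peak reached into the 3 kb around the 5′ end of PDIA2, a protein disulfide isomerase gene, with 870.0, 1671 and 1106 bp in WT and 0 in KO. The second, chr12:666347-667062, lay outside annotated genes, with NINJ2 as the nearest, and was covered over 251, 716 and 553 bp in WT. With WT replicate 3 alone, 35 regions (3.77%) were called there and in no KO library, beside 5.72% of all autosomal regions. The fold enrichment of the peaks at the ARHGDIG and 12p regions was modest, between the 7.01 and the 47.0 percentile of their own lists.

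In the other direction, 5 regions (0.538%) were called in 3 of 3 KO and 0 of 3 WT libraries, beside 0.281% of all. Compared with WT replicate 3 alone, 20 regions (2.15%) were called in 3 of 3 KO libraries only, beside 1.45% of all. None of the 5 lay at a protein-coding promoter. Ranked by the lowest of its 3 percentiles of fold enrichment within the KO lists, the first was chr5:505872-506715, at 24.3. It led the 5 in none of the single lists. It lay in an intron of SLC9A3, a sodium-proton exchanger gene, and was covered over 844, 516 and 443 bp in KO. The others lay in introns of ADAP1 and PRKAR1B on 7p, in an intron on 8p and at the 5′ end of a non-coding gene on 15q, and covered between 248 and 873 bp per KO library. The central 150 bases of the ARHGDIG and SLC9A3 regions (chr16:280830-280979 and chr5:506219-506368, plus strand) are shown as the region of each direction whose lowest percentile was highest. Neither stretch holds TTAGGG or CCCTAA, and they had 74.7% and 64.7% G+C with 13 and 12 CpG.
ARHGDIG region: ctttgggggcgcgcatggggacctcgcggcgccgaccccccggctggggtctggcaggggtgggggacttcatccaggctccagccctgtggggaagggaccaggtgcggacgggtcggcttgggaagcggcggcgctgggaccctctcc
SLC9A3 intron region: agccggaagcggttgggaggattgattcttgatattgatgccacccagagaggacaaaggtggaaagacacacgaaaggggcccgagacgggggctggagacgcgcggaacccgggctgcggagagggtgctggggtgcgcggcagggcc

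The remaining 3 regions with more covered bases in every KO library were called in at least 1 WT library. An intergenic region of 12q, chr12:132392932-132394654, was covered over 430.0, 0 and 463 bp in WT and 1529, 1265 and 1312 bp in KO. At an intron of SPIRE2, an actin nucleator gene, on 16q, the values were 515, 762 and 826 bp in WT and 1090.0, 1176 and 864 bp in KO. The third, on 18p, had 322, 0 and 294 bp in WT and 754, 349 and 353 bp in KO.

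Some chromosome ends stood apart in the number of regions called. At 7p every KO library called more regions than every WT library, with 37, 28 and 37 of 50 in KO and 19, 19 and 25 in WT. At 18q the numbers were 20, 19 and 23 of 30 in KO and 12, 11 and 17 in WT, at 5p 24, 20 and 22 of 30 in KO and 18, 15 and 17 in WT, and at 18p 15, 14 and 17 of 19 in KO and 13, 13 and 12 in WT. These 4 ends were 10.3% of the 39, beside 2.13% of 2395 windows of 1 Mb that lay farther than 1 Mb from the ends and held at least 3 regions. Among ends with at least 10 regions they were 4 of 33, or 12.1%, beside 3.24% of windows with at least 10. The reverse order was found at 12p alone, with 14, 14 and 13 regions of 14 in WT and 12 in each KO library, beside 2.09% of windows. With WT replicate 3 alone, every KO library called more regions at 5 ends (12.8%), which were 5p, 7p, 11q, 18p and 18q, beside 7.06% of windows, and WT replicate 3 called more at 6 ends (15.4%), beside 19.9%. The copy number of these ends in each clone is unknown here. Only the comparison at 10 or more regions matched the windows to the ends in number of regions.

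The regions behind the difference at 7p and 18q were mostly not promoters, and neither were most regions of these ends. Protein-coding promoters made up 16% of the regions at 7p and 23.3% at 18q. Since 92.3% of subtelomeric promoter regions were called in all 6 libraries, few promoters could differ. At 7p, 33 of 50 regions were called in more KO than WT libraries and 1 in more WT than KO libraries, and 32 of the 33 lay away from protein-coding promoters. At 18q these numbers were 19 and 1 of 30, and all 19 lay away from such promoters. Over all 929 regions, 217 were called in more KO libraries, 122 in more WT libraries and 590 in equal numbers. The same count was not made over all autosomal regions, so this excess cannot be called particular to the ends. At 7p, 19 of the 50 regions had been called in a single library, of which 7 belonged to KO replicate 1 and 10 to KO replicate 3. Examples with 3 KO calls are an intergenic region at chr7:451836-453184 near PDGFA, a growth factor gene, with 0, 0 and 902 bp in WT and 1349, 1034 and 685 bp in KO, and the intronic PRKAR1B and ADAP1 regions named above.

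The pattern did not end at 1 Mb on 7p. Between 1 and 5 Mb from that end, 34.6%, 32.4% and 45.3% of 179 regions were called in WT and 75.4%, 48.6% and 53.6% in KO. Over the rest of chromosome 7 the libraries overlapped, with 68.4%, 71.0% and 75.3% in WT and 83.0%, 65.5% and 69.2% in KO. On 18q the order was lost between 1 and 5 Mb, where WT libraries called 51.4%, 47.1% and 70.0% of 70 regions and KO libraries 87.1%, 44.3% and 54.3%. At 5p and 18p the libraries also overlapped between 1 and 5 Mb. When lists were cut to the same number of peaks or to −log10 q of at least 3, or any one library was left out, 7p kept the order of its libraries near the end. With peaks of −log10 q of at least 3 it was lost at 18q and 5p, and with equal numbers of peaks at 18p. Without KO replicate 1, the number of ends with more regions in every WT library was 7 in place of 1.

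Covered length gave a different picture of the ends. Every WT library had more covered bases than every KO library at 10 of 39 ends (25.6%), beside 41.2% of the interior windows. The reverse was found at 0 ends, beside 0.125% of windows. With WT replicate 3 alone, 12 ends (30.8%) had more covered bases than in every KO library, beside 46.4% of the windows, and 0 had fewer, beside 2.55%. For covered length the windows were not matched to the ends in number of regions.

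**Figure D4:**
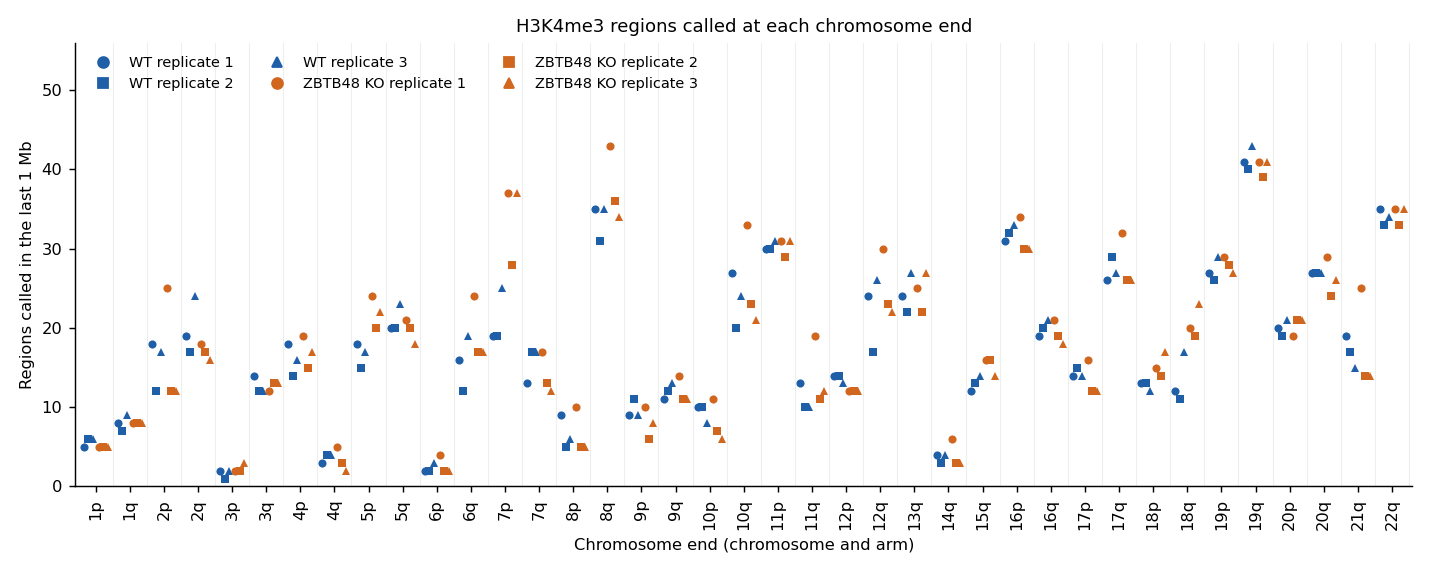
Number of regions called in the last 1 Mb of each of 39 chromosome ends, with 1 point per library. Blue points are WT and orange points ZBTB48 KO libraries, and the symbol gives the replicate; at 7p the KO libraries reach 37, 28 and 37, above the 19, 19 and 25 of WT.

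The zone held the 5′ ends of 641 protein-coding genes. Of these promoters, 425 (66.3%) were called in all 6 libraries, beside 65.8% of all autosomal promoters, and 173 (27.0%) in none, beside 29.6%. Between 441 and 456 promoters were called in any one library. Within 3 kb of the 5′ end, 239 promoters (37.3%) had more covered bases in every WT than in every KO library, beside 37.1% of all, and 0 had fewer in every WT library. With WT replicate 3 at least 500 bp above every KO library, there were 41 promoters (6.40%), beside 4.02% of all autosomal promoters.

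PXMP2, a gene of a peroxisomal membrane protein and a target of ZBTB48 in the study, lies 588 kb from the end of 12q and shares its promoter with POLE, which encodes the catalytic subunit of DNA polymerase epsilon. Peaks covered 4877, 5245 and 2513 bp around its 5′ end in WT and 2069, 2016 and 2045 bp in KO. The KO libraries lay close together and WT replicate 3 was 444 bp above the highest of them. WT averaged 4212 bp ± 1483 (SD, n = 3), whereas KO averaged 2043 bp ± 26.5 (SD, n = 3) (exact permutation, p = 0.1, the smallest possible). The RefSeq promoter (GRCh38.p14, chr12:132687337-132687636, plus strand) is shown because it is the single ZBTB48 target of the study's list in the zone. It holds neither TTAGGG nor CCCTAA. The hexamer in either orientation was present in 6.54% of 1039 RefSeq promoters within 1 Mb of an end and in 9.11% of 33725 autosomal ones.
PXMP2 promoter: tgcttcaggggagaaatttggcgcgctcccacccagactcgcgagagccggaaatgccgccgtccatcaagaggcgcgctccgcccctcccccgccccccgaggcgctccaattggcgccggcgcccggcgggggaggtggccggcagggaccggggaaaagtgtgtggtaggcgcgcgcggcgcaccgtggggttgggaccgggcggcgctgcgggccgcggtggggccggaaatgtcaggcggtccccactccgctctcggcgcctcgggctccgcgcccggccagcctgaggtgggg

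Of 11 interferon-regulated genes in the zone, 4 were called in all 6 libraries, 5 in none and 2 in some, and 5 had more covered bases in every WT library, beside the 65.8%, 29.6% and 37.1% of all autosomal promoters given above. The 4 were IFITM1, RBCK1, PSMB1 and PSMD13, and with TYMP they made up the 5. PSMD13 was also counted among the constitutive genes below. WT replicate 3 exceeded the highest KO library by 177, 90 and 12 bp at RBCK1, PSMB1 and PSMD13. IFITM1, which encodes an interferon-induced transmembrane protein that restricts the entry of viruses, had 3457, 4792 and 2435 bp in WT and 869, 1146 and 1564 bp in KO. Every WT library lay above every KO library, with WT replicate 3 higher by 871 bp than the highest of them (exact permutation, p = 0.1, the smallest possible). Its neighbours on 11p behaved otherwise. IFITM2 had 2909, 3020.0 and 0 bp in WT and 2190.0, 2199 and 2155 bp in KO, and was thus missing from the list of WT replicate 3 alone. IFITM3 had 2146, 1901 and 386 bp in WT and 494, 404 and 1435 bp in KO. Reads that mapped to several places had been dropped, and the part this played at these related genes was not tested.

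TYMP, the thymidine phosphorylase gene, had no peak within 1 kb of its 5′ end, but within 3 kb it had 1753, 1637 and 1097 bp in WT and 343, 255 and 322 bp in KO, without overlap. IRF4, IRF7, SIGIRR and IFITM5 had no peak in any library. The RefSeq promoter of IFITM1 (GRCh38.p14, chr11:313790-314089, plus strand) is shown with 2 motifs of interferon signalling in capitals, the interferon-stimulated element searched as 2 copies of GAAA with any 2 bases between them, and the gamma-activated site searched as TTCNNNGAA, both on either strand. The second block of capitals is an overlap of both motifs. The first motif was present in 3.57% and TTCNNNGAA in 7.77% of all autosomal RefSeq promoters, and in 1.54% and 5.20% of those within 1 Mb of an end.
IFITM1 promoter: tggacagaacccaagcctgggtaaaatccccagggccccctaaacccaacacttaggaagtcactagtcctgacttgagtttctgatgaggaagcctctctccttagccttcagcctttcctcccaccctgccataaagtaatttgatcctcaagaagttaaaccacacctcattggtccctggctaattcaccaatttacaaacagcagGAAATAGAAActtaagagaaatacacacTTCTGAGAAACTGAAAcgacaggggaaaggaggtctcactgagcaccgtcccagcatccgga

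Genes used in every cell were marked throughout. All 15 genes of genome and telomere maintenance, all 9 chromatin enzymes and all 16 constitutive genes counted in the zone were called in all 6 libraries. More bases were covered in every WT library at 10 of 15, 7 of 9 and 6 of 16 of them, beside 37.1% of all autosomal promoters, and at 0 in every KO library. That 37.1% is taken over promoters of which 29.6% were called in no library, whereas all of these genes were called in all 6. It is therefore not a like share for them, and a share over promoters called in all 6 libraries was not counted. RTEL1, a helicase that unwinds telomeric loops, had 3194, 2759 and 2065 bp in WT and 1892, 1705 and 1640.0 bp in KO. EHMT1, a histone H3 lysine 9 methyltransferase gene, had 4518, 4655 and 3205 bp in WT and 2350.0, 2261 and 2292 bp in KO, and NCAPG2, a condensin subunit gene, had 5491, 3270.0 and 2672 bp in WT and 1948, 1873 and 1882 bp in KO. At RPLP2, a ribosomal stalk protein gene, WT replicate 3 had 2418 bp and lay among the KO libraries, which had 2668, 2414 and 2207 bp. RPL23AP82, also on the constitutive list, lay in the zone on 22q and had no peak in any library. It was counted only with the copied families below.

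Terminal zinc finger genes, 52 in the zone and 26 of them on 19q, were called in all 6 libraries at 43 promoters, in none at 6 and in some at 3. More bases were covered in every WT library at 23 of the 52. Over all autosomal promoters the shares were 65.8% called in all 6 libraries, 29.6% in none and 37.1% with more bases in every WT library. Since a larger part of all promoters was called in no library, the 37.1% is not a like share for these genes. The 3 with differing calls were all on 19q. ZNF132 was covered over 1631, 0 and 1939 bp in WT and 0 bp in each KO library, ZNF154 over 982 bp in WT replicate 3 alone, and ZNF814 over 0, 266 and 917 bp in WT and 782, 746 and 766 bp in KO. ZNF132 was thus called in 2 of 3 WT clones and 0 of 3 KO clones, which does not separate the genotypes, and a promoter without a call may still carry the mark under the threshold.

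Genes of other tissues were mixed. The 5 alpha-globin genes of 16p, which are used in erythroid cells, had no peak in any library. Of 17 other genes, 7 were called in all 6 libraries, 5 in none and 5 in some, beside 65.8% of all autosomal promoters in all 6 and 29.6% in none. CHL1, a neural adhesion gene, and VIPR2, a neuropeptide receptor gene, were called throughout, whereas MYT1 and ACR were not called. TCF15, a factor of the paraxial mesoderm, had 1802, 2393 and 1889 bp in WT and 0, 1340.0 and 1284 bp in KO. Of the families that are copied between chromosome ends (WASH, DDX11L, FAM138, OR4F, MIR1302, RPL23AP, CICP and TUBB8), none of 74 members in the zone had a peak in any library. Reads that map to several places had been dropped, so the mark at these copies could not be assessed.

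**Figure D5:**
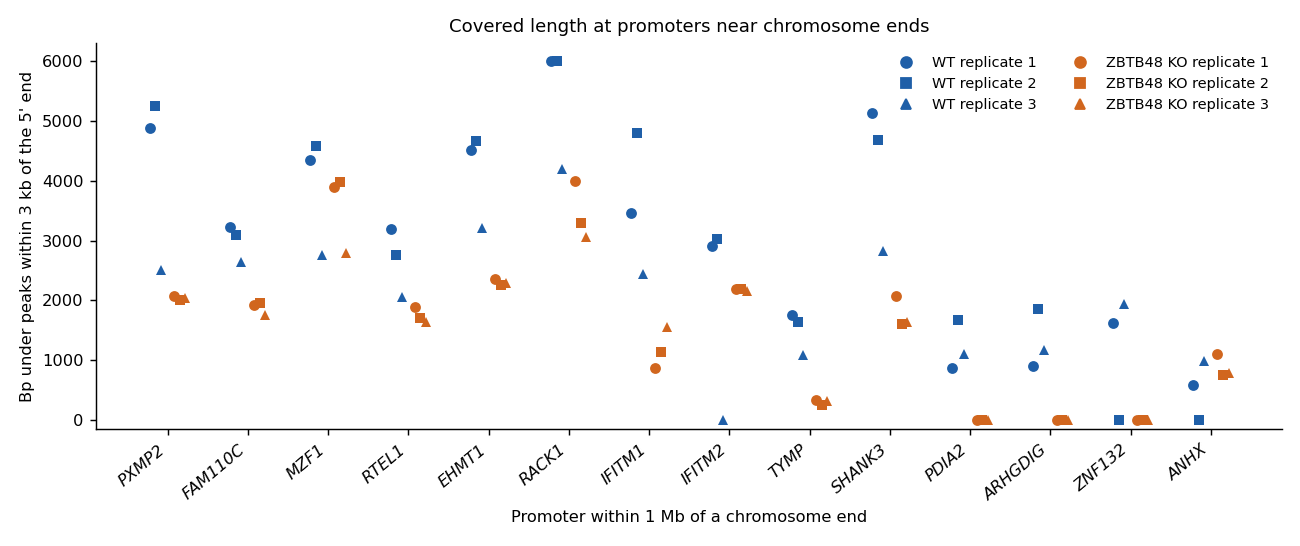
Bp under peaks within 3 kb of the 5′ end of 14 promoters within 1 Mb of a chromosome end, with 1 point per library. Blue points are WT and orange points ZBTB48 KO libraries, and the symbol gives the replicate; WT and KO libraries do not overlap at PXMP2, IFITM1, TYMP, SHANK3, PDIA2 and ARHGDIG, while they overlap at MZF1, IFITM2, ZNF132 and ANHX.

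The longest marked regions of the zone lay on 8q, 22q, 5q and 16p and each spanned several 5′ ends. The widest, chr8:144506608-144525430, spans the promoters of MFSD3 and of RECQL4, a DNA helicase gene, and was covered over 16276, 17480.0 and 7073 bp in WT and 13943, 5715 and 5972 bp in KO. KO replicate 1 lay between the WT libraries there. A region at ZFTRAF1 on 8q had 9609, 9351 and 8285 bp in WT and 6660.0, 4565 and 4320.0 bp in KO, without overlap. A region at TUBGCP6, a component of the gamma-tubulin complex, and HDAC10 on 22q had 7944, 10211 and 7746 bp in WT and 5247, 4174 and 4792 bp in KO, also without overlap.

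A region at ZNF34 and RPL8 on 8q had 8949, 8026 and 6069 bp in WT and 8631, 5090.0 and 3238 bp in KO, and the groups overlapped. At RACK1, a ribosome-bound scaffold protein gene on 5q, the values over the whole region were 12295, 10888 and 5866 bp in WT and 6059, 5231 and 4405 bp in KO, with WT replicate 3 among the KO libraries. Within 3 kb of the RACK1 5′ end the libraries did not overlap, with 6001, 6001 and 4187 bp in WT and 4001, 3285 and 3067 bp in KO. Over the region at METRN on 16p the values were 14056, 15263 and 5602 bp in WT and 5976, 4527 and 4560.0 bp in KO, again with WT replicate 3 among the KO libraries.

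Further promoters with an excess of WT replicate 3 over every KO library were chosen after their values were seen, among those called in all 6 libraries. PPDPF on 20q had 5452, 5509 and 4421 bp in WT and 2408, 2329 and 2272 bp in KO, an excess of 2013 bp and the largest of the 641 promoters. The next were ZNF132, described above, and SCX, which WT replicate 2 did not call, with 1939 and 1649 bp. SOX12, a transcription factor gene on 20p, had 5203, 5127 and 5201 bp in WT and 4072, 3450.0 and 3844 bp in KO. FAM20C, which encodes a kinase of secreted proteins, had 4391, 5394 and 3594 bp in WT and 2552, 2357 and 2511 bp in KO on 7p, where most other regions had been called more often in KO libraries. No single promoter can pass a test with 3 libraries against 3.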

How the data were processed

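H3K4me3 ChIP-seq peak lists of 6 libraries were used. The authors used Trimmomatic for trimming, Bowtie2 2.3.5.1 for alignment to GRCh38 and MACS2 2.1.1.2 for broad peaks of each library, after dropping duplicates and reads with several map positions (methods and submitters' processing notes). The lists deposited by the authors give a display score, not used here, −log10 p-values and q-values, and fold enrichment as a ratio, which describe or rank peaks within a list only. They carry no counts, so depth is unknown. Peaks on chromosomes 1 to 22 were merged. A call needed at least 1 bp under a peak of the library. Gene positions were from GENCODE release 44 and promoter sequences from RefSeq. Replicates are the libraries that the labels number within a genotype. Group means were compared by two-sided exact permutation over 20 assignments, and regions near the ends with the rest by exact sign-flip permutation over 64, with Benjamini-Hochberg adjustment over 7 tests. Regions were named if called in one genotype only, among the 6 nearest to an end or the 6 widest, or from 9 gene lists. The regions, lists and tests were chosen with earlier results of these data known. Counting was tested on simulated lists. The sequences of the telomeric arrays are not reported here. Python 3.11.15 and numpy 2.4.6 were used.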

Additional observations from a re-analysis of the deposited data

How the results depend on the processing

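Under the alternatives no result passed an adjusted p of 0.05, and peaks within 1000 bp merged, distance from the outermost sequenced base and peaks with −log10 q of at least 3 turned no direction. The difference in the share called became 0.74 percentage points without KO replicate 1 (range -6.89 to 0.74 over the libraries left out) and 19.3 points when a call needed peaks over 50% of the region. The difference from the rest of the genome in the share called became -5.02 points with that overlap and -1.97 points within 2 Mb of an end (0.63 to 2.22 with a library left out). The difference in the share of covered length was -0.12 points with WT replicate 3 alone (0.029 to 0.18), that in median distance 2227 bp with WT replicate 3 alone and 4813 bp without KO replicate 1 (-5964 to 4813), and that in median width 205 bp with WT replicate 3 alone (673 to 1279). The ranges were 0.048 to 0.10 for the width ratio and 123 to 208 bp for the width against the rest. The causes were not tested. For the counts of regions that follow, the share of all autosomal regions is given only with WT replicate 3 alone. The counts under the other alternatives therefore cannot be read as particular to the ends. Regions called in WT only, 2 as reported, numbered 1 with −log10 q of at least 3, 1 within 500 kb, 42 with 50% overlap, 15 with calls in at least 2 of 3 libraries, 35 with WT replicate 3 alone (3.77%, beside 5.72% of all autosomal regions), an alternative chosen after seeing the data, and 2 to 14 with a library left out, the highest without KO replicate 1. Those called in KO only, 5 as reported, numbered 8 with equal numbers of peaks, 0 within 500 kb, 9 within 2 Mb, 3 with 50% overlap, 20 with calls in at least 2 of 3, 20 with WT replicate 3 alone (2.15%, beside 1.45%) and 8 to 17 with a library left out, the highest without WT replicate 3. Regions longer in every WT library, 247 as reported, numbered 107 within 500 kb, 451 within 2 Mb and 251 to 485 with a library left out, the highest without WT replicate 3. Regions longer in every KO library, 8 as reported, numbered 1 within 500 kb, 14 within 2 Mb, 49 with WT replicate 3 alone (5.27%, beside 3.73%) and 14 to 31 with a library left out, the highest without WT replicate 3. The number of ends with more regions called in every KO library, 4 as reported, was 2 with −log10 q of at least 3, 3 with equal numbers of peaks, 5 with WT replicate 3 alone and 4 to 6 with a library left out, and these alternatives were chosen after seeing the data. The replicate numbers did not pair the samples (correlations of deviations 0.049, 0.090 and 0.17), and as a block they gave p of 0.75, 0.75, 0.25, 0.25 and 1 for the 5 genotype comparisons by exact sign-flip permutation, with a difference in share called of -3.91 points.

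Lists of peaks limit what can be said. The number of reads behind a call is unknown here, an absent call is no measure of absence of the mark, and multimapping reads were dropped, so shared repeats near the ends were not assessed. The 2 kinds of WT lists cannot be told apart from genotype except through WT replicate 3.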
